A study of Mus musculus with 3 samples.

Results

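Lineage-depleted bone marrow of mice that lost Lztr1 was compared with that of Cre-negative control mice by droplet single-cell RNA sequencing. The barcodes described were all those of the 2 libraries with at least 1000 UMIs (counted mRNA molecules), at least 500 genes and at most 10% of UMIs from mitochondrially encoded genes. They numbered 9945, of which 7523 came from the control and 2422 from the Lztr1 knockout, out of 19762 such barcodes in all 3 libraries of the study. The control mouse strain was Rit1M90I/+Mx1Cre-, so it carried the Rit1-M90I allele but no Cre, though the sample title says wild type. The knockout strain was Lztr1fl/fl;Mx1Cre+, with both Lztr1 copies floxed and an Mx1 promoter that drives Cre. The library of strain Rit1M90I/+;Mx1Cre+ (Rit1-M90I below, 9817 barcodes) shares the same control and is used only for levels set beside those of the knockout. All mice were 8 weeks old when they were given 3 doses of pIpC at 12 mg/kg, and marrow was taken 4 weeks later. Live cells negative for CD3, CD11b, Gr1, B220 and Ter119 were sorted, which depletes T and B cells, mature myeloid cells and late erythroid cells. The sources used here do not say how many mice stood behind a library.

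LZTR1 is the adaptor through which a CUL3 ubiquitin ligase recognises RIT1 and some RAS proteins and marks them for breakdown. RAS-type GTPases pass growth factor signals to the RAF, MEK and ERK kinases, whose output in marrow includes immediate early genes, cyclin D1 and feedback inhibitors such as the DUSP, SPRY and SPRED proteins. pIpC is a double-stranded RNA mimic that evokes interferon, and interferon switches on the Mx1 promoter in blood-forming cells and in other tissues. The comparison asks how marrow progenitors without LZTR1 differ from progenitors that kept it.

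Each genotype had 1 library, so no difference below has a replicate, no test could be run and no p-value is given. All intervals are 95% intervals for counting error only, and they leave out the spread between mice and between cells. The knockout carried Mx1-Cre and the control did not, and the 2 libraries came from different mouse strains, of which the control strain carried the Rit1-M90I allele. Loss of Lztr1, presence of Cre and differences between strains or mice thus cannot be told apart. The kept barcodes held 66038812 UMIs in the control and 29404470 in the knockout. The median kept barcode held 7021 UMIs and 2404 genes in the control against 10140.5 UMIs and 3032 genes in the knockout, a gap in depth that bears on every share below. The kept barcodes of the control and the knockout had 2 sequences in common. Xist was at 1297 CPM (UMIs per 1000000 UMIs) in the control and 1237 CPM in the knockout, and no UMI of the Y-linked genes Ddx3y, Eif2s3y and Uty was counted in either, the pattern of female cells.

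Lztr1 mRNA was lower in the knockout library in nearly every population with enough UMIs to see it, and was not at 0. Lztr1 (ENSMUSG00000022761, mm10 chromosome 16, 17508688 to 17526333, plus strand) had 1152 UMIs or 17.4 CPM (16.5 to 18.5) in the control and 186 UMIs or 6.33 CPM (5.45 to 7.30) in the knockout. The Rit1-M90I library, which has Cre but an intact Lztr1 gene, stood at 15.3 CPM, close to the control. The knockout over control ratio was 0.363 (0.309 to 0.424). The sources used here do not name the floxed exons, and these libraries read the 3' end of transcripts, so the remaining UMIs do not measure the share of cells that kept the gene. Of the neighbours of Lztr1 within 250 kb, 10 genes were at 5 CPM or more, and all 10 lay within 1.5-fold, with log2 ratios from -0.10 to 0.14, as did most genes tested over all barcodes.

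By population, Lztr1 was at 18.1 CPM in the control and 5.29 CPM in the knockout among erythroid progenitors, a ratio of 0.29 (0.20 to 0.40), and at 16.2 and 6.09 CPM among neutrophil progenitors, a ratio of 0.38 (0.26 to 0.53). In the stem and multipotent gate it stood at 17.5 CPM (23 UMIs) against 12.1 CPM (6 UMIs), with a ratio of 0.69 (0.23 to 1.75). The innate lymphoid precursor gate was at 17.95 CPM (9 UMIs) against 20.2 CPM (7 UMIs), a ratio of 1.12 (0.36 to 3.39). Neither of these last 2 intervals excludes equal levels, and both rest on few UMIs. NK and conventional dendritic gates had 13 and 12 control UMIs of Lztr1 and 0 knockout UMIs, where a count of 0 allows up to 12.2 and 6.45 CPM (3 UMIs per library).

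Rit1 mRNA, which encodes the GTPase that LZTR1 helps to remove, stood a little higher in the knockout over all barcodes. Rit1 (ENSMUSG00000028057, chromosome 3, 88716838 to 88731049, plus strand) was at 8.87 CPM in control cells, 11.8 CPM in the knockout and 13.99 CPM in Rit1-M90I. Knockout over control, the ratio was 1.33 (1.16 to 1.53) over all barcodes, 1.56 (1.14 to 2.13) in neutrophil progenitors and 1.86 (1.24 to 2.80) in the monocyte lineage. In erythroid progenitors the levels were 5.22 and 6.58 CPM, with an interval of the ratio from 0.87 to 1.80 that holds 1. The ratio was below 1 in NK (0.65), plasmacytoid dendritic (0.70), conventional dendritic (0.77) and erythroblast (0.81) gates. Each of these rests on few UMIs, with an interval that holds 1, and the ratio was above 1 in the other populations compared. Protein was not measured. The ligase scaffold gene Cul3 was at 83.0 CPM in the control and 89.4 CPM in the knockout, and Rbx1, its ring subunit, at 299.8 and 286 CPM.

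Summed over all barcodes, the 2 libraries were close for most genes. Of 6086 genes at 20 CPM or more in 1 of the 2 libraries, 17 were higher in the knockout by 1.5-fold or more (0.279%) and 25 lower by as much (0.411%). These folds, and all log2 ratios below, compare knockout CPM + 10 with control CPM + 10, so that scarce genes show smaller ratios than their plain CPM give. The median log2 ratio was 0.01. Such sums cannot tell fewer cells of a type from less RNA per cell.

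**Figure D1:**
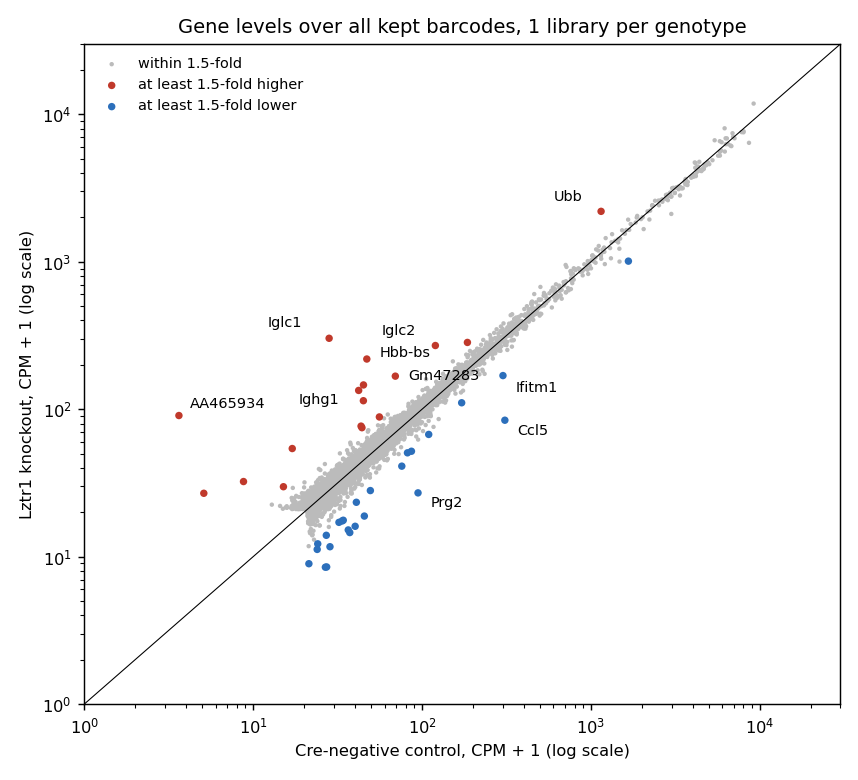
Levels of the 6086 genes tested over all kept barcodes of the control (x axis) and the knockout (y axis), as CPM + 1 on log scales, 1 library per genotype, with no error bars. Red points are the 17 genes at least 1.5-fold higher in the knockout, blue points the 25 at least 1.5-fold lower, and the line marks equal levels; AA465934, Iglc1 and Hbb-bs lie far above it and Ccl5 and Prg2 far below.

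The gene farthest above the control outside the antibody genes was AA465934, a processed transcript of unknown function on mm10 chromosome 11 (83291699 to 83294632, plus strand). It had 174 UMIs or 2.63 CPM in the control and 2635 UMIs or 89.6 CPM in the knockout, while Rit1-M90I stood at 3.07 CPM. The ratio was 34.0 (29.2 to 39.9), and every one of the 12 populations compared showed it. Of 8 neighbours within 250 kb at 5 CPM or more, 7 lay within 1.5-fold, as did most genes tested. The exception, the T and NK cell chemokine gene Ccl5, was lower in the knockout.

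Adult globin genes, antibody light and heavy chain genes and Ubb made up most of the rest of the 10 highest genes. Hbb-bs, a beta globin gene, was at 46.1 CPM in control cells, 218 CPM in the knockout and 95.4 CPM in Rit1-M90I, and the ratio to the control was 4.73 (4.53 to 4.94). Hbb-bt was at 44.0 and 145 CPM, Hba-a1 at 41.1 and 133 CPM and Hba-a2 at 16.04 and 53.1 CPM. All 4 measured globin genes were thus at least 1.5-fold higher. Iglc1, a lambda light chain constant gene, was at 27.2 CPM in control cells, 302 CPM in the knockout and 731 CPM in Rit1-M90I. Most of its UMIs came from the plasma cell gate, 1427 of 1794 in the control and 8788 of 8875 in the knockout, which held 137 and 42 barcodes. Iglc2 (119 and 269 CPM) and the heavy chain gene Ighg1 (43.9 and 113 CPM) followed, and reads of such constant genes can be shared between near-identical copies.

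Ubb, a polyubiquitin gene (chromosome 11, 62551171 to 62553213, plus strand), was at 1147 CPM in control cells, 2197 CPM in the knockout and 1136 CPM in Rit1-M90I, and knockout over control gave 1.92 (1.90 to 1.94). The knockout thus stood apart from both other libraries. Rps27a, which encodes ubiquitin fused to a ribosomal protein, was at 5241 CPM in the control and 4881 CPM in the knockout. Ubiquitin genes carry near-identical repeats, so reads within these repeats cannot be placed with certainty. Ubb had 6 neighbours within 250 kb at 5 CPM or more, and all 6 were within 1.5-fold, as were most genes tested.

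Among the 10 lowest genes, several belong to T and NK cells, of which the sort should have removed T cells. Ccl5 was at 308 CPM in control cells, 83.2 CPM in the knockout and 150 CPM in Rit1-M90I, a ratio of 0.27 (0.26 to 0.28). Ms4a4b, a lymphocyte membrane gene, was at 74.9 and 40.1 CPM, and Hcst, the DAP10 adaptor of NK and T cells, at 108.5 and 66.5 CPM. The T cell gate took 5.54% of control and 1.82% of knockout barcodes, and the NK gate 3.97% and 2.31%. NK cells held 7350 of the 20355 control UMIs of Ccl5. Ratios against a control matched for the mix of all populations are given below for Ccl5 and Ms4a4b. The part of either gate alone was not tested. Prg2, the eosinophil major basic protein gene, was at 93.6 and 26.1 CPM, and Ccl6, a myeloid chemokine gene, at 81.0 and 49.6 CPM. Ifitm1, an interferon-induced membrane gene also used as a stem cell marker, stood at 300.3 CPM in control cells, 168 CPM in the knockout and 293 CPM in Rit1-M90I. Txnip, an arrestin that restrains glucose uptake, was at 171 and 110 CPM. The AP-1 genes Jun (85.5 and 50.9 CPM) and Jund (116 and 74.9 CPM) also belong to the group.

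Slc15a2, a peptide transporter gene on the same chromosome as Lztr1 (chromosome 16, 36750177 to 36784962, minus strand), was too scarce for the threshold of 20 CPM and was chosen after its values were seen. It had 413 UMIs in the control and 2 in the knockout, and both knockout UMIs lay in the plasma cell gate. In the early progenitor gate, which had the highest control CPM of it, the counts were 57 and 0, at least 7.89-fold lower when 3 UMIs are allowed for the 0. The 4 neighbours of Slc15a2 at 5 CPM or more were within 1.5-fold, with log2 ratios from -0.07 to 0.11.

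The marker-gated populations were set by 178 of 179 marker genes in 21 classes, each barcode going to the class with the highest mean marker level where that level passed a cut-off set after the cells had been seen. A gate thus groups barcodes by marker level and is not a proven cell type. Like levels of a gate's own markers in both libraries follow in part from this rule. The erythroblast gate, led by Hbb-bs, Hba-a1, Hba-a2 and Slc4a1, took 1.34% (1.09 to 1.63) of control and 4.29% (3.52 to 5.18) of knockout barcodes, 101 against 104. The ratio of shares was 3.20 (2.44 to 4.19), and with every barcode thinned to 1000 UMIs the shares were 1.18% and 4.29%. Erythroid progenitors, led by Car1, Sphk1 and Ermap, were 10.6% and 13.7%, a ratio of 1.29 (1.15 to 1.46). The erythroblast gate rests in part on globin genes, which themselves differed between the libraries, and Ter119, which the sort selects against, marks late erythroid cells.

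Basophils and mast cells, led by Prss34 and Mcpt8, took 14.5% of control and 11.5% of knockout barcodes, a ratio of 0.79 (0.70 to 0.90). The larger myeloid and early gates had like shares in both libraries. Neutrophil progenitors, led by Elane, Prtn3 and Mpo, were 15.3% and 14.7%, the monocyte lineage 7.90% and 8.34%, and early Apoe and Gata2 progenitors 7.03% and 6.85%. Lymphoid progenitors, led by Dntt and Myl10, were 5.57% and 6.23%, and plasmacytoid dendritic cells, led by Ly6d and Siglech, 3.12% and 3.76%. For all 5 gates the interval of the ratio held 1. The stem and multipotent gate, led by Hlf, Adgrl4 and Mecom, held 214 control and 55 knockout barcodes, 2.84% and 2.27%, with a ratio of 0.80 (0.60 to 1.07). Within 0.1 of the score cut-off, or of the lead over the next class that a gate requires, lay 21 control and 15 knockout barcodes. On thinned barcodes the shares were 1.36% and 1.03%. Marker levels within it differed between the libraries, as described below, so its size is given as a description.

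Shares of lymphoid cells and of stroma differed more. T cells were 5.54% (5.04 to 6.08) of the control and 1.82% (1.32 to 2.43) of the knockout, a ratio of 0.33 (0.24 to 0.45). NK cells, led by Gzma, Klre1 and Ncr1, were 3.97% and 2.31%, a ratio of 0.58 (0.44 to 0.77). That ratio was 1.017 when barcodes were clustered and clusters named in place of gating. Innate lymphoid precursors, led by Gata3, Rora and Tox, were 1.86% and 3.47%, a ratio of 1.86 (1.43 to 2.43). Pro-B and pre-B cells were 1.40% and 0.743%, a ratio of 0.53 (0.32 to 0.88), which rests on 18 knockout barcodes. Conventional dendritic cells, a gate led by H2-Aa, H2-Eb1 and Cd74 with 1 of its own markers among its 10 leading genes, were 1.65% and 2.64% (0.23% and 0.41% when thinned), and stroma with endothelium, led by Col1a1 and Cxcl12, 0.266% and 0.908%, or 20 against 22 barcodes. CD3 and B220 are among the sort antibodies, so T and B cell shares are those of cells that escaped it, and do not measure marrow content. Barcodes that entered no gate were 12.2% of either library, or 30.3% and 32.9% when thinned. The late granule neutrophil gate held 12 and 2 barcodes and more markers of other classes than of its own among its leading genes, so it is plotted but not described.

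**Figure D2:**
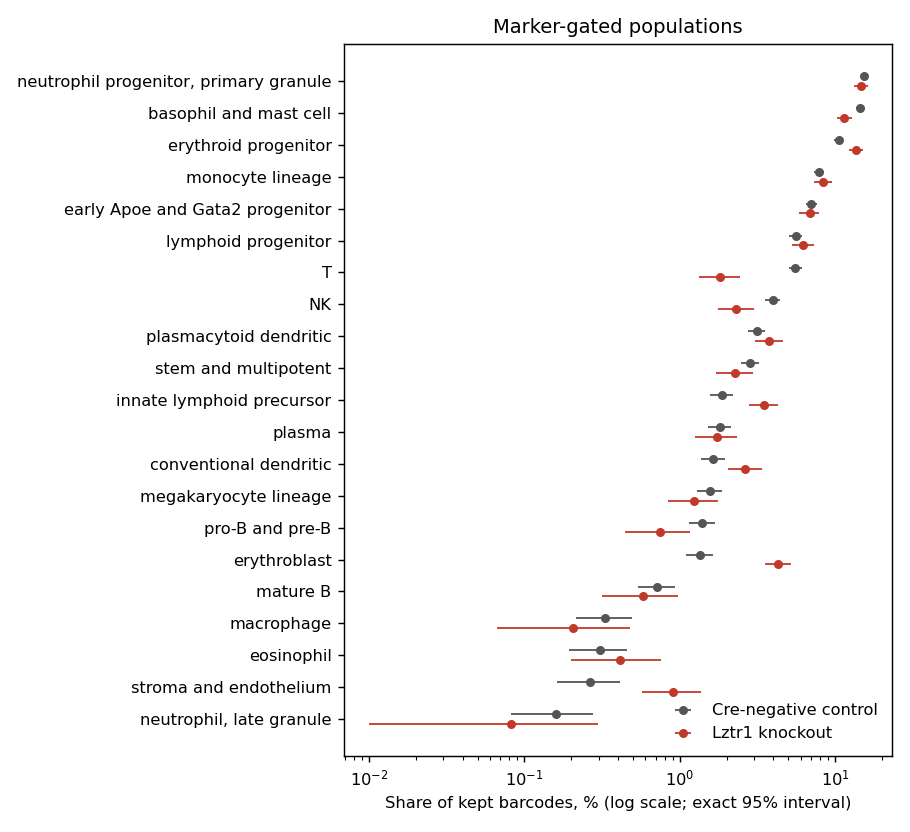
Share of kept barcodes in each marker-gated population, in percent on a log axis, with exact Clopper-Pearson 95% intervals, for the control (grey) and the knockout (red). T cells were 5.54% of the control and 1.82% of the knockout, and erythroblasts 1.34% and 4.29%, while the intervals of neutrophil progenitors, the monocyte lineage and the early and lymphoid progenitors overlap.

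To set expression apart from the mix of cells, the control level of each gene was recomputed with its populations weighted by their share of the knockout UMIs. Against this matched control, 11 genes were higher by 1.5-fold or more (0.181%) and 9 lower by as much (0.148%), of which 10 and 8 had also been called against the control as measured. AA465934 (log2 ratio 2.98 before and after), Ubb (0.93 and 0.97), Mid1 (-0.69 and -0.69) and Cpt1a (-0.66 and -0.64) barely moved. The globin genes came nearer to 0: Hbb-bs went from 2.02 to 0.94 and Hba-a1 from 1.48 to 0.52. Ccl5 went from -1.77 to -1.09, Prg2 from -1.52 to -0.59 and Ms4a4b from -0.76 to -0.23. Col1a1, a collagen gene of stroma, went the other way, from -0.97 to -2.36, on 20 control and 22 knockout stromal barcodes. The globin genes, Prg2 and Col1a1 are markers that set gates, so their matched values follow in part from the gating rule. The eosinophil gate, which Prg2 marks, held 23 control and 10 knockout barcodes. Mid1 encodes a ubiquitin ligase of microtubules, and Cpt1a an enzyme that readies long-chain fatty acids for entry into mitochondria.

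**Figure D3:**
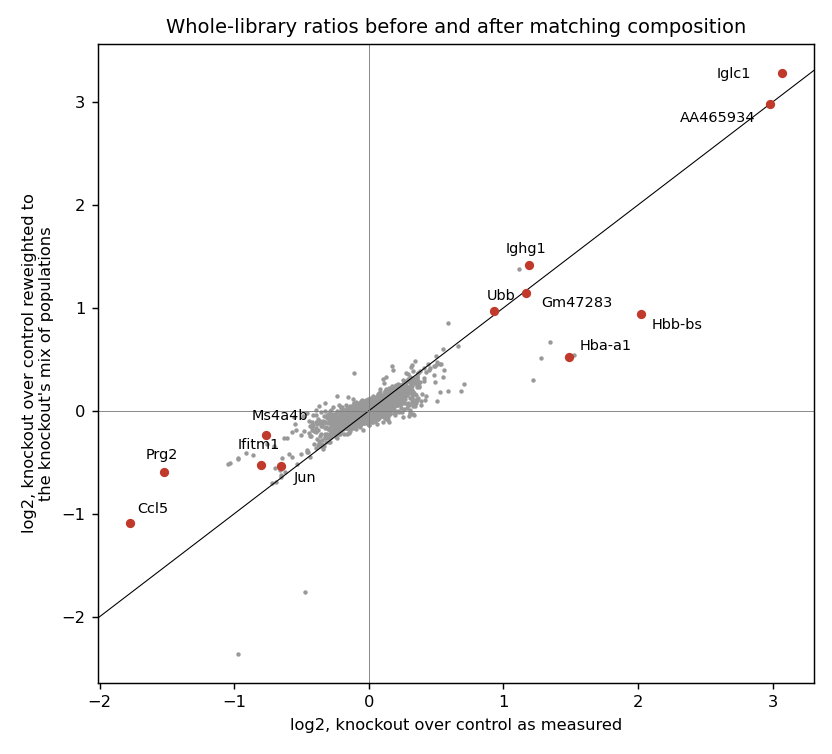
Log2 ratio of knockout over control for each gene tested, as measured (x axis) and against the control reweighted to the knockout's mix of populations (y axis), 1 library per genotype. Genes on the diagonal, such as AA465934, have the same ratio both ways, and Hbb-bs, Hba-a1, Ccl5 and Prg2 lie nearer to 0 on the y axis.

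Some genes were above the control, or below it, in every one of the 12 populations that had at least 50 barcodes in both libraries. Of 4101 genes at 50 CPM or more in either library in at least 3 of them, 67 were higher in all 12 and 45 lower in all 12, at any size of difference. In the other populations the side of such a gene could rest on few UMIs. AA465934 had a median log2 ratio of 2.83 over the 12, from 1.78 in NK cells to 3.85 in erythroblasts. It was at 4.71 CPM or less in each control population and at 40.7 CPM or more in each knockout population, so the ranges do not overlap. No UMI of it was found in control conventional dendritic cells or innate lymphoid precursors, and the knockout levels there were at least 15.8-fold and at least 9.15-fold higher than 3 UMIs would give. Ubb had a median of 0.87 (0.69 to 1.16) and Gm47283 of 1.20 (0.90 to 1.55), where parentheses give the lowest and highest population. In Rit1-M90I the medians were 0.04 for AA465934, -0.03 for Ubb and 0.72 for Gm47283.

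Gm47283 is annotated on the Y chromosome (90784738 to 90816464), in the stretch that X and Y share, and stood at 68.5 CPM in control cells, 167 CPM in the knockout and 112 CPM in Rit1-M90I. Mid1, at the edge of the shared stretch on X (169685199 to 170005736), was lower in the knockout, with 32.6 CPM in control cells, 16.5 CPM in the knockout and 33.9 CPM in Rit1-M90I. Tsix, the antisense partner of Xist, had a median log2 ratio of 0.53 over populations, and its reads cannot be told from those of Xist unless strand was used in counting.

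Histone genes whose transcription is tied to DNA replication formed the largest group among the 10 highest medians. Hist2h2ac had a median log2 ratio of 0.52, Hist1h4d 0.52, Hist1h4h 0.49 and Hist2h2aa1 0.44. That all 4 were above 0 in every population is the rule by which genes entered this ranking. Hist1h4d stood at 43.1 CPM in control cells, 73.9 CPM in the knockout and 54.6 CPM in Rit1-M90I over all barcodes. Most such transcripts have no poly(A) tail, so a poly(A)-primed library sees only part of them, and reads may be shared between copies. Ccl9, a myeloid chemokine gene (median 0.59), and Gm49980 (0.55) were also among the 10 highest, and Gm49980 had a median of 0.75 in Rit1-M90I. Below the 10 highest, the ribosomal protein genes Rps28, Rps29 and Rpl38 had medians of 0.38, 0.37 and 0.35, and 0.45, 0.47 and 0.40 in Rit1-M90I. Cytosolic ribosomal protein genes did not share this as a list: over all barcodes 56 of 77 lay below 0, none was called, and the median was -0.05. Rpl32 and Rpl26, for example, were lower in all 12 populations, with medians of -0.15 and -0.15.

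The genes lower in every population included the AP-1 gene Jun, Klf2 and a gene of lipid storage. Jun had a median log2 ratio of -0.52, from -1.19 in the stem and multipotent gate to -0.09 in erythroblasts. Klf2, a factor of quiescent lymphocytes and endothelium, had -0.45, from -3.25 in innate lymphoid precursors to -0.003 in erythroid progenitors. Plin2, which coats lipid droplets, had -0.62, from -0.99 in NK cells to -0.05 in conventional dendritic cells, and -0.19 with the stricter barcode filter. Serpina3g (-0.40), Npc1, the lysosomal cholesterol exporter gene (-0.35), Arl6ip5 (-0.26), Rpl22l1 (-0.23) and Dctn3 (-0.22) followed. Igha had a median of -0.80, but its source is the plasma cell gate, where it stood at 121190 CPM in the control and 105470 CPM in the knockout. In neutrophil progenitors, which should lack it, Igha was at 109 and 29.7 CPM, and the part of free RNA in these values was not tested.

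**Figure D4:**
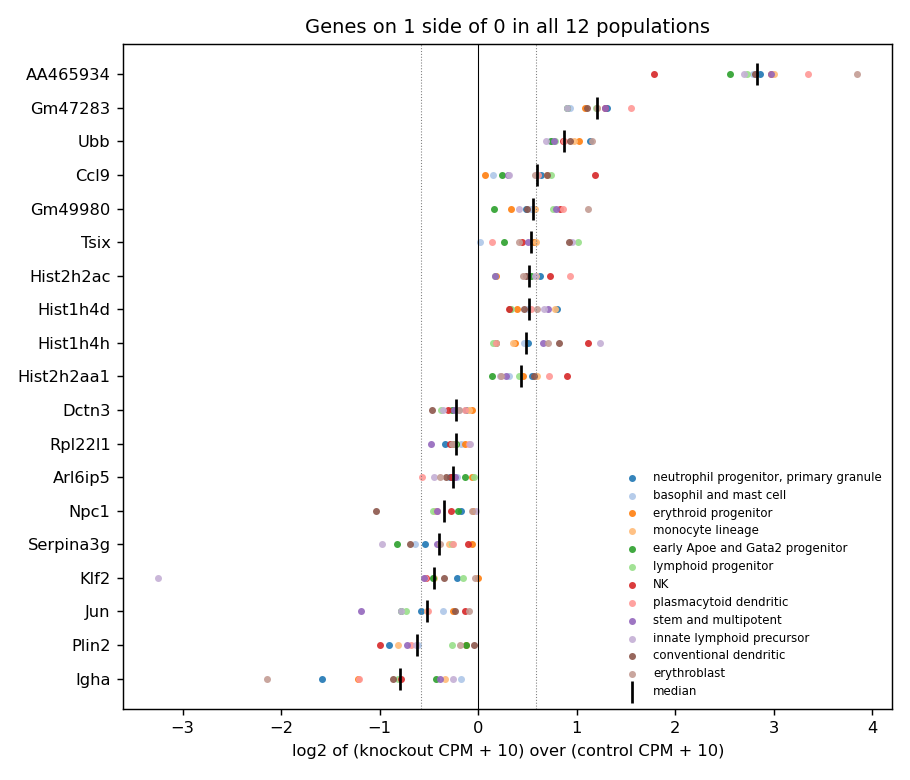
Log2 ratio of knockout over control in each of the 12 populations (coloured points) with their median (black bar), for 10 genes with the highest and 9 with the lowest medians among genes on 1 side of 0 in all 12. The dotted lines mark 1.5-fold; for AA465934, Gm47283 and Ubb every point lies to the right of the upper line, and 1 innate lymphoid precursor point for Klf2 lies at -3.25.

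The genes of the RAS pathway itself differed little. Of 27 listed members of the RAS cascade, 22 were measured over all barcodes, none was 1.5-fold higher or lower, and the median log2 ratio was 0.00. Hras was at 68.5 CPM in the control and 67.7 CPM in the knockout, Braf at 25.1 and 26.1 CPM and Ptpn11 (SHP2) at 52.6 and 54.4 CPM. Of 18 listed RAS, RAP and RAL GTPases 13 were measured and none differed by 1.5-fold, with a median of -0.02. These are mRNA levels, and LZTR1 acts on proteins.

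ERK feedback and output genes stood slightly above the control, but few could be measured. Of 20 listed, 5 were at 20 CPM or more over all barcodes, all 5 were above 0 with a median log2 ratio of 0.21, and none reached 1.5-fold. For all genes tested, 56.0% were above 0. Ccnd1, cyclin D1, was at 35.0 CPM in control cells, 51.7 CPM in the knockout and 28.6 CPM in Rit1-M90I, a ratio of 1.48 (1.38 to 1.58). It was called in erythroid progenitors, where it was at 9.94 and 23.3 CPM, and in neutrophil progenitors, with 14.02 and 26.9 CPM. The scarcer ERK targets were mixed: Etv5 was at 5.30 CPM in the control and 8.98 CPM in the knockout, Dusp6, an ERK phosphatase, at 14.1 and 16.9 CPM, Spred2 at 14.6 and 17.96 CPM, and Spry2 at 13.96 and 11.8 CPM.

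Immediate early genes went the other way. Of 9 measured over all barcodes, 2 were at least 1.5-fold lower, none higher, and the median was -0.29. Fos, too scarce for the list, stood at 18.4 CPM in control cells, 8.64 CPM in the knockout and 16.7 CPM in Rit1-M90I, while Egr1 was at 4.65 and 7.45 CPM and Junb at 36.5 and 35.1 CPM. So Jun, Jund and Fos were lower while Egr1, another early ERK target, was not. Of 40 listed interferon-stimulated genes 15 were measured and none was called, with a median of -0.03. Isg15, at 7.31 and 11.1 CPM, and Irf7, at 9.46 and 10.4 CPM, were too scarce to be among the 15.

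**Figure D5:**
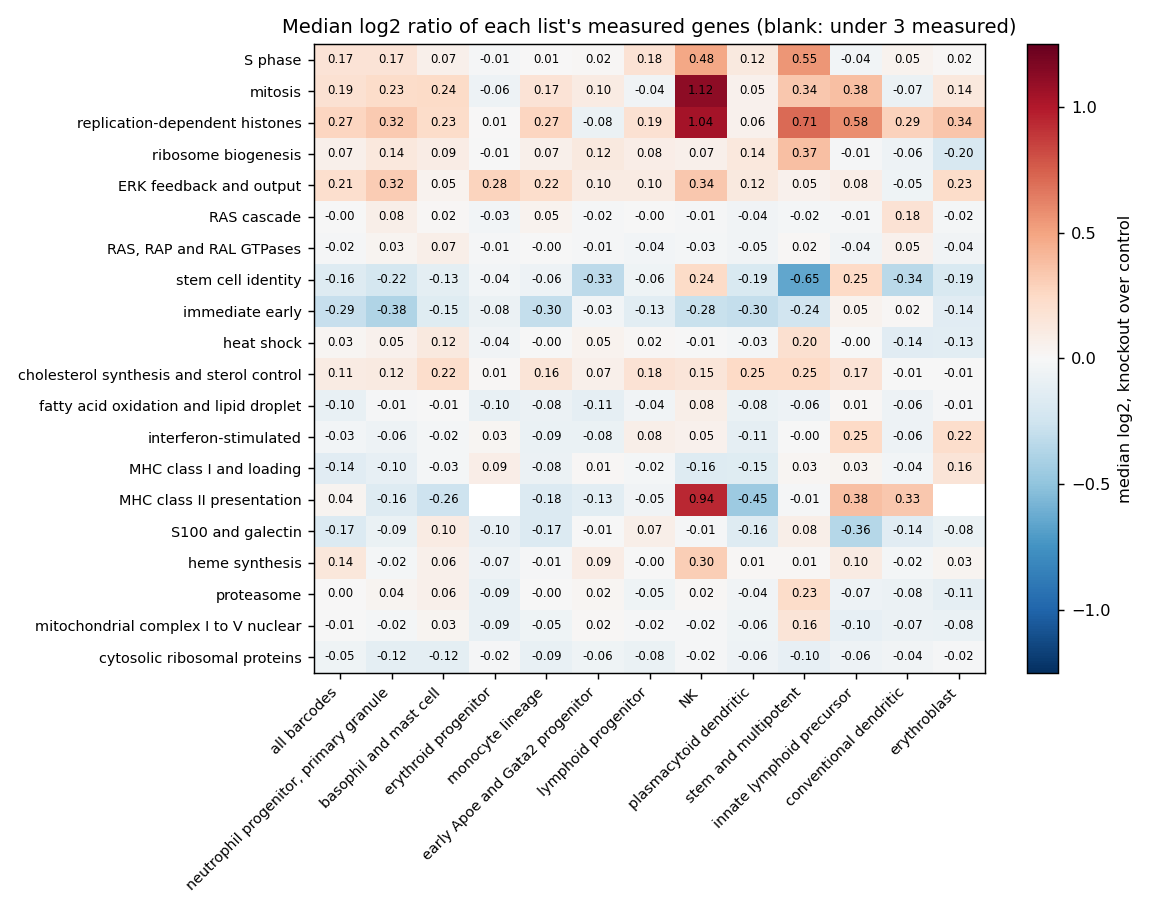
Median log2 ratio of knockout over control of the measured genes of 20 lists (y axis), over all barcodes and in each of the 12 populations (x axis), coloured from blue (lower in the knockout) to red (higher); each cell prints its median, and blank cells had under 3 measured genes. The stem and multipotent column shows 0.55 for S phase and -0.65 for stem cell identity, and the NK column 1.12 for mitosis.

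Genes of DNA replication and of mitosis were nearly all slightly above the control over all barcodes. Of 46 measured S phase genes 45 were above 0, with a median log2 ratio of 0.17, and of 42 measured mitosis genes all 42, with a median of 0.19, but none of either list reached 1.5-fold. Pclaf, a partner of the replication clamp PCNA, was at 229 CPM in the control and 294 CPM in the knockout. Top2a, the topoisomerase of dividing cells, was at 334 and 433 CPM and Mki67, the Ki-67 antigen gene, at 303 and 381 CPM. In Rit1-M90I, Top2a stood at 346 CPM and Mki67 at 279 CPM.

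Barcodes with S phase UMIs were also more frequent in the knockout. After thinning every barcode to 1000 UMIs, 51.5% (50.3 to 52.6) of control and 62.6% (60.6 to 64.5) of knockout barcodes had at least 3 UMIs of the S phase list, against 47.4% and 58.6% with at least 3 per 1000 of all their UMIs. For the mitosis list the thinned shares were 31.2% (30.2 to 32.3) and 39.9% (38.0 to 41.9), and the unthinned shares 27.1% and 35.3%. Among NK cells the thinned S phase share was 12.4% in the control and 21.4% in the knockout, with overlapping intervals. Within neutrophil progenitors the thinned mitosis share was 31.6% (29.0 to 34.4) in the control and 45.8% (40.5 to 51.1) in the knockout. Within erythroid progenitors it was 62.6% and 60.8%, with overlapping intervals. This mitosis share was also lower in the knockout, with overlapping intervals, among conventional dendritic (50.8% and 40.6%) and plasmacytoid dendritic cells (44.7% and 38.5%). The same held for early progenitors (20.6% and 19.3%) and innate lymphoid precursors (11.4% and 10.7%). In the other populations compared it was higher in the knockout. A UMI share alone does not show that a cell was cycling, and the mix of populations also enters the shares over all barcodes.

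In the stem and multipotent gate, S phase genes were higher and stem cell identity genes lower in the knockout. Here 5.76% of 6893 genes tested were higher by 1.5-fold or more and 6.01% lower, on 1315779 control and 496233 knockout UMIs. Of the 45 S phase genes measured, 22 reached 1.5-fold above the control and none 1.5-fold below it, and 43 were above 0, with a median log2 ratio of 0.55 against 0.03 for all genes tested. Tk1, thymidine kinase, was at 26.6 CPM in control cells, 84.6 CPM in the knockout and 34.3 CPM in Rit1-M90I, a ratio of 3.18 (1.98 to 5.13). Pclaf was at 71.4 and 198 CPM, a ratio of 2.76 (2.06 to 3.71), and Pcna, the replication clamp, at 210.5 and 389 CPM, a ratio of 1.85 (1.53 to 2.23). Uhrf1, which guides DNA methylation to new strands, was at 63.1 and 117 CPM, Mcm5, a helicase subunit, at 121 and 198 CPM, Rfc3, a clamp loader subunit, at 51.7 and 111 CPM, and Pola1, of the primase complex, at 44.8 and 76.6 CPM.

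Other growth-linked lists in the same gate went with the S phase genes. Of 34 measured mitosis genes 8 were higher and 1 lower (median 0.34), of 11 replication-dependent histone genes 7 were higher and none lower (0.71), and of 38 ribosome biogenesis genes 7 were higher, none lower and 36 above 0 (0.37). Cdca8, of the chromosomal passenger complex, was at 31.2 CPM in the control and 74.6 CPM in the knockout, and Cenpa, the centromere histone, at 55.5 and 32.2 CPM, so mitosis genes did not all lie on 1 side. The thinned share of stem gate barcodes with at least 3 S phase UMIs was 36.9% (30.4 to 43.8) in the control and 56.4% (42.3 to 69.7) in the knockout, and the intervals overlap slightly. Without thinning the shares were 25.2% and 49.1%. Median depth in the gate was 5445 UMIs in the control and 9143 in the knockout.

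Of the 21 stem cell identity genes measured in this gate, 11 lay at least 1.5-fold below the control and 1 above it (median -0.65). Some of these genes also define the gate, Hlf, Mecom, Pdzk1ip1 and Ly6a among them. Pdzk1ip1, a membrane protein gene of stem cells, was at 78.3 CPM in control cells, 22.2 CPM in the knockout and 74.4 CPM in Rit1-M90I, a ratio of 0.28 (0.14 to 0.53). Txnip was at 410 and 157 CPM, a ratio of 0.38 (0.30 to 0.49), and Mecom, a stem cell transcription factor gene, at 104 and 60.5 CPM. Hlf, another such factor, was at 358 and 276 CPM, within 1.5-fold. Ly6a, the Sca-1 antigen gene, was the 1 higher gene, with 79.8 and 133 CPM and a ratio of 1.67 (1.21 to 2.29).

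The lowest genes of the stem gate at 50 CPM or more were Tsc22d1 (144 CPM in the control and 42.3 CPM in the knockout), Acot1, a fatty acyl-CoA thioesterase gene (56.2 and 14.1 CPM), Nceh1, a cholesteryl ester hydrolase gene (79.8 and 24.2 CPM), and Myl10, a myosin light chain gene (129 and 44.3 CPM). Jun was at 173 and 70.5 CPM and Fos at 38.8 and 8.06 CPM (51 and 4 UMIs). The platelet integrin gene Itga2b was at 44.8 and 12.1 CPM and Zfpm1, the GATA partner FOG1, at 56.2 and 22.2 CPM. Markers of other cells stood higher too: Mcpt8, a basophil protease gene, was at 15.96 CPM in the control and 94.7 CPM in the knockout, and Elane, of neutrophil progenitors, at 35.7 and 84.6 CPM. Of 9 measured primary granule genes 4 were higher and none lower, and of 8 basophil and mast cell genes 4 and none. The part of these cells or of their free RNA in the stem gate values was not tested.

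Promoters of the S phase genes that were higher in the stem gate were searched for the E2F motif, since E2F factors switch on replication genes. The motif was taken as TTTCCCGC, TTTGGCGC, TTTCGCGC or TTTGCCGC on either strand within the 250 bases before an annotated start, and overlapping matches were counted separately. A gene with several annotated starts counted once, by the start with most matches. Of 27025 genes with a RefSeq promoter (build GRCm38.p6), 583 or 2.16% held a match. Promoters were found for 18 of the 22 higher S phase genes, and 4 of the 18 held a match (22.2%), as did 3 of 19 S phase genes within 1.5-fold (15.8%) and 2 of 30 mitosis genes (6.67%). The 4 of the 18 that held a match are shown, Rfc3 (chr5:151651209-151651458, minus strand), Uhrf1 (chr17:56304063-56304312, plus), Mcm5 (chr8:75109259-75109508, plus) and Pola1 (chrX:93632156-93632405, minus). Each is read 5' to 3' towards the gene with the match in capitals. In Mcm5 the capitals cover 2 overlapping matches.
Rfc3: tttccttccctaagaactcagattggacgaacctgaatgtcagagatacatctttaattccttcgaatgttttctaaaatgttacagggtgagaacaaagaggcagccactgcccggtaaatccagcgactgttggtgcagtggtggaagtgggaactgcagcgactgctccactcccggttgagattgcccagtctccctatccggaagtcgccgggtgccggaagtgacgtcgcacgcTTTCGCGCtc
Uhrf1: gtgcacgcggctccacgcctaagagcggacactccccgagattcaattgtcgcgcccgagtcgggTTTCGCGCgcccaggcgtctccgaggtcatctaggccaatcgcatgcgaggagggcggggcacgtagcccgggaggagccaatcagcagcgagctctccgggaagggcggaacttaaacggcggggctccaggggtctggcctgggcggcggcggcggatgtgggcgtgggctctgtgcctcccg
Mcm5: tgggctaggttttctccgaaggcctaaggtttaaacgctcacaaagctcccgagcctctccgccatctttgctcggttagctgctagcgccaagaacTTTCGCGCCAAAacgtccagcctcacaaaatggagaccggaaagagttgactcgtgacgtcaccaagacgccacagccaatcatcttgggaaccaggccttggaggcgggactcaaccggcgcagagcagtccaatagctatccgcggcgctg
Pola1: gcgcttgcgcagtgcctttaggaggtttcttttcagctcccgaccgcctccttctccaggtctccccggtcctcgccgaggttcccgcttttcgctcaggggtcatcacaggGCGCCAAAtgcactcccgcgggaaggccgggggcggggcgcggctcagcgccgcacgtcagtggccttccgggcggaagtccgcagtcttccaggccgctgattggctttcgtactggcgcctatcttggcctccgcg
A match describes letters and no binding was measured. Tk1, Pclaf and Pcna, with larger ratios than Mcm5 and Pola1, had no match in this window.

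Early Apoe and Gata2 progenitors, which lie between stem cells and the erythroid, megakaryocyte and basophil branches, held 529 control and 166 knockout barcodes. Of 6471 genes tested there, 0.495% were at least 1.5-fold higher and 0.695% lower. Ctsl, the lysosomal protease cathepsin L gene, stood at 24.9 CPM in control cells, 80.9 CPM in the knockout and 26.4 CPM in Rit1-M90I, a ratio of 3.25 (2.41 to 4.40). The knockout thus stood above both other libraries. Cpt1a was at 62.5 and 25.5 CPM, Hspa1b, a heat shock gene, at 79.3 and 37.5 CPM, Serpina3g at 107 and 56.2 CPM and Jun at 140 and 77.2 CPM. Rec114, a meiosis gene, was at 30.5 and 65.9 CPM. The stem cell genes Hlf (37.3 and 17.2 CPM) and Hoxa7 (39.8 and 17.2 CPM) were lower here as well, and of 17 measured stem cell identity genes 4 were lower and none higher. Of 7 measured ERK feedback and output genes 1 was higher and none lower (median 0.10), Spred1, at 42.0 and 71.2 CPM. Of 7 measured immediate early genes 1 was higher, Egr1 at 14.3 and 31.5 CPM, and 2 were lower. The gate's own factor Gata2 was at 501 and 527 CPM.

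Erythroid progenitors were among the best measured cells, with 16091116 control and 7756030 knockout UMIs, and only 0.199% of 5533 genes were higher by 1.5-fold or more and 0.108% lower. The genes that define the lineage were level: Klf1, its master factor, was at 215 CPM in the control and 222 CPM in the knockout, Gata1 at 122 and 124 CPM, Tfrc, the transferrin receptor, at 167 and 168 CPM and Epor, the erythropoietin receptor, at 105 and 95.02 CPM. Klf1 and Epor are markers that set the gate, which in part fixes their levels. Ctsl was at 29.6 and 59.8 CPM, a ratio of 2.02 (1.77 to 2.30), with Rit1-M90I at 31.8 CPM. Pdcd4, a translation repressor gene, was at 175 and 269 CPM, but also at 296 CPM in Rit1-M90I. Fabp5, a fatty acid-binding protein gene, was at 131 and 83.0 CPM, a ratio of 0.63 (0.58 to 0.69). Elane, a gene of neutrophil progenitors, was at 23.4 and 57.4 CPM, and the part of free RNA in these values was not tested.

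Erythroblasts carried more globin mRNA in the knockout. Of 5638 genes tested 1.28% were higher and 1.05% lower, and of 4 measured globin genes 3 were higher and none lower. Hbb-bs was at 1782 CPM in control cells, 3540 CPM in the knockout and 3032 CPM in Rit1-M90I, a ratio of 1.99 (1.90 to 2.08). Globin genes, and Alas2 and Slc4a1 named next, are markers that set this gate, which in part fixes their levels. Alas2, the erythroid enzyme that starts heme synthesis, was at 32.7 and 58.5 CPM, a ratio of 1.79 (1.26 to 2.57), and Slc4a1, the band 3 anion exchanger, at 145 and 205 CPM, within 1.5-fold. The metallothionein genes Mt1 (299 and 146 CPM) and Mt2 (190.1 and 97.7 CPM) were lower, as was Fabp5 (107 and 45.6 CPM). Rsad2 (viperin), an interferon-induced gene, was at 12.7 and 52.1 CPM, and turned to the other side when every deposited barcode was kept. Mcpt8, a basophil gene that erythroblasts do not make, was at 32.0 CPM in the control and 212 CPM in the knockout.

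Neutrophil progenitors had level granule genes and differed in few genes, 0.216% of 5562 being higher and 0.216% lower. Mpo, myeloperoxidase, was at 6124 CPM in the control and 6685 CPM in the knockout, Elane, neutrophil elastase, at 5958 and 5178 CPM, and Ctsg, cathepsin G, at 3358 and 3297 CPM. These granule genes are markers that set the gate, which in part fixes their levels. Wfdc21, a gene of more mature neutrophils, was at 79.9 CPM in control cells, 27.9 CPM in the knockout and 145 CPM in Rit1-M90I, a ratio of 0.35 (0.30 to 0.41). Cebpe, the factor of the late granule stage, was at 88.7 and 62.8 CPM, within 1.5-fold. Plin2 was at 65.8 and 30.6 CPM, a ratio of 0.46 (0.40 to 0.54), and Jund at 47.9 and 26.0 CPM. Hist1h4d was at 33.4 and 65.2 CPM and Top2a at 225 and 328 CPM, and 37 of 39 measured mitosis genes were above 0, where 65.7% of all genes tested were.

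The monocyte lineage differed in still fewer genes, 0.219% higher and 0.151% lower of 5947. Its receptor genes were level, with Csf1r at 149 CPM in the control and 155 CPM in the knockout and Cx3cr1 at 135 and 131 CPM. Both are markers that set the gate, which in part fixes their levels. Lipid genes were prominent among those that differed. Cpt1a was at 51.1 CPM in control cells, 21.5 CPM in the knockout and 24.2 CPM in Rit1-M90I, a ratio of 0.42 (0.31 to 0.56). Plin2 was at 70.7 and 36.0 CPM, and Scd2, a fatty acid desaturase gene, at 48.0 and 83.0 CPM. Ccl9 was at 111 and 185 CPM. For the whole list of fatty acid oxidation and lipid droplet genes, 2 of 20 measured here were lower, none was higher, and the median of -0.08 was close to that of all genes, 0.03. The lower genes were thus Cpt1a and Plin2 rather than the list.

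Basophils and mast cells had level lineage genes, but those named here are markers that set the gate, which in part fixes their levels. Of 6265 genes 0.607% were higher and 0.702% lower. Cpa3, mast cell carboxypeptidase, was at 2446 CPM in the control and 2430 CPM in the knockout, Fcer1a, of the IgE receptor, at 1576 and 1551 CPM, Prss34 at 23620 and 22010 CPM, and Mcpt8 at 15120 and 19310 CPM. Fos was at 36.8 CPM in control cells, 7.58 CPM in the knockout and 17.3 CPM in Rit1-M90I, a ratio of 0.21 (0.09 to 0.40), and Fosb at 44.5 and 12.6 CPM. These were the 2 lower of 11 measured immediate early genes, of which none was higher and 3 were above 0 (median -0.15). Itgam, the gene of CD11b, a sort antigen, was at 85.0 and 45.5 CPM. Hmmr, a spindle gene, was at 41.7 and 80.9 CPM, and of 39 measured mitosis genes 3 were higher, none lower and 36 above 0. Ccl5, a chemokine gene of T and NK cells, was at 92.7 and 15.2 CPM, and the part of such cells or of their free RNA in these values was not tested.

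Lymphoid progenitors held 419 control and 151 knockout barcodes, and 0.644% of 6363 genes were higher and 0.629% lower. Dntt, the terminal transferase of early lymphocytes, was at 2090 CPM in the control and 1780 CPM in the knockout, and Flt3 and Il7r, receptors of these cells, at 383 and 351 CPM and at 292 and 240 CPM. Dntt and Il7r are markers that set the gate, which in part fixes their levels. Socs2, an inhibitor of cytokine signals, was at 29.4 CPM in control cells, 4.25 CPM in the knockout and 19.3 CPM in Rit1-M90I, a ratio of 0.14 (0.05 to 0.33). Myl10 was at 401 and 205 CPM, Ly6d, an antigen of lymphoid commitment, at 220 and 125 CPM, Mgst2 at 101 and 46.7 CPM and Cpt1a at 62.4 and 26.2 CPM. The ERK targets Etv5 (10.0 and 29.0 CPM) and Dusp6 (27.7 and 47.5 CPM) were higher, with Rit1-M90I at 9.01 and 19.3 CPM. These were 2 of 8 measured genes of their list, whose median was 0.10. The basophil gene Mcpt8, which these cells do not make, was at 13.2 and 45.3 CPM, and 3 of 6 measured members of its list were higher and none lower.

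Plasmacytoid dendritic cells had level identity genes, with Siglech at 449 CPM in the control and 448 CPM in the knockout and Tcf4, their factor, at 913 and 1016 CPM. Both are markers that set the gate, which in part fixes their levels. Of 6660 genes 2.91% were higher and 2.19% lower. Elane was at 39.3 and 241 CPM and Mpo at 131 and 494 CPM, and 5 of 9 measured primary granule genes were higher and none lower. Elane was at 5958 CPM in control neutrophil progenitors, and among NK cells, which do not make it, Elane was at 28.3 and 97.7 CPM. The part of free RNA in the dendritic cell values was not tested. Mgst2 was at 58.2 and 20.2 CPM and Cpt1a at 44.4 and 18.7 CPM.

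Conventional dendritic cells held 124 control and 64 knockout barcodes, and 5.39% of 6527 genes were higher and 5.9% lower. MHC class II genes stood above the control: 4 of 10 measured were higher and none lower. H2-Eb1 was at 264 CPM in control cells, 602 CPM in the knockout and 443 CPM in Rit1-M90I, a ratio of 2.28 (1.90 to 2.74), and Cd74, the invariant chain, at 1164 and 1803 CPM. These genes lead the gate itself. In plasmacytoid dendritic cells none of 5 measured class II genes was higher and 2 were lower.

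NK cells and innate lymphoid precursors, with 56 and 84 knockout barcodes, gave values of low precision. Among NK cells 11.3% of 6782 genes were higher and 10.8% lower. Their receptor gene Ncr1 was at 374.5 CPM in the control and 407 CPM in the knockout, and their factor Eomes at 243 and 248 CPM. Both are markers that set the NK gate, which in part fixes their levels. Of 35 measured mitosis genes 27 were higher and none lower, with a median of 1.12, and Top2a was at 74.2 CPM in the control and 208 CPM in the knockout, or 63 and 51 UMIs. The thinned share of NK barcodes with at least 3 mitosis UMIs was nonetheless 9.70% (6.59 to 13.6) in the control and 10.7% (4.03 to 21.9) in the knockout, and 3.01% and 10.7% without thinning. Myeloid genes stood higher beside them: Klf4 was at 5.89 and 85.5 CPM (5 and 21 UMIs), Spi1, the PU.1 factor, at 21.2 and 93.6 CPM and Cst3, a lysosomal inhibitor of phagocytes, at 140 and 724 CPM, and the part of myeloid cells in the mitosis values was not tested. Ccl5 was at 8656 CPM in the control and 4480 CPM in the knockout, and the granzyme gene Gzmm at 83.6 and 16.3 CPM (71 and 4 UMIs).

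Among innate lymphoid precursors 10.2% of 7071 genes were higher and 7.86% lower. The factors Gata3 (540.5 CPM in the control and 616.5 CPM in the knockout), Tox (337 and 314 CPM) and Rora (556 and 455 CPM) were within 1.5-fold. These factors are markers that set the gate, which in part fixes their levels. Klf2 was at 140 and 5.76 CPM (70 and 2 UMIs), a ratio of 0.04 (0.00 to 0.15), and S100a6, a calcium-binding protein of activated lymphocytes, at 441 and 95.1 CPM. Cd3d, a T cell receptor gene, had 24 control UMIs and none in the knockout, and Ccl5 was at 1125 and 216 CPM. Ccr9, a gut-homing receptor gene, was at 118 and 357 CPM, and H2-Aa and Cd74, of MHC class II, at 25.9 and 199 CPM and at 195 and 527 CPM. The gate held more T cell mRNA in the control and more class II mRNA in the knockout, and how far this reflects other cells within it was not tested.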

How the data were processed

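The sorted marrow samples were deposited by the authors as 10x matrices of raw UMI counts per gene and barcode. The submitters' processing notes name Cell Ranger 6.1.1, Seurat 4.1.0 and build mm10, without saying which step each served. Barcodes with at least 1000 UMIs, 500 genes and at most 10% mitochondrial UMIs were kept, and doublets were left in: scrublet called 261 control and 83 knockout barcodes, which were left out in an alternative. UMIs were summed per library and gate and given as CPM with exact Poisson 95% intervals, exact conditional intervals for ratios, Clopper-Pearson intervals for shares and log intervals for ratios of shares. No test was possible with 1 library per genotype. Genes of at least 20 CPM in 1 of the 2 libraries were called at 1.5-fold on the CPM + 10 scale. Where 38 symbols had several entries, the one with most UMIs was used, and 32235 of 32285 gene IDs matched the annotation. A barcode entered a gate at a marker score of at least 0.5, at least 2 markers and a lead of 0.1 over the next class. The named genes were Lztr1, Rit1, the 10 highest and lowest of at least 50 CPM, the 10 highest and lowest medians over populations, the 4 highest and lowest in each population and up to 3 members per list. Members, the 45 gene lists and the 21 marker classes were chosen with earlier results of these data known. Python 3.11.15, scipy 1.17.1, pandas 2.3.3 and scanpy 1.11.5 were used. On counts simulated for this comparison at whole-library depth, 98.0% of 99 genes at 0.5-fold and 100% of 100 genes at 2-fold were called among 5997 genes, and no unchanged gene. The simulated counts held counting error alone, with no spread between mice, cells or mixes of cells. They cannot show how often unchanged genes are called in the real libraries or within gates, which hold far fewer UMIs. Some genes that this rule picks are not reported here.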

Additional observations from a re-analysis of the deposited data

Results flagged for a closer look

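Among the 6 populations with at least 150 knockout barcodes, 2 genes were at least 1.5-fold apart in opposite directions, and in neither case was the difference between the populations tested. Fabp5, a fatty acid-binding protein gene, had a log2 ratio of 0.60 in basophils and mast cells (63.9 CPM in the control and 102 CPM in the knockout) and of -0.60 in erythroid progenitors (131 and 83.0 CPM). Ly6c2, which encodes the Ly6C antigen of monocytes, had a log2 ratio of 0.60 in early Apoe and Gata2 progenitors (13.4 and 25.5 CPM) and of -0.59 in basophils and mast cells (43.3 and 25.3 CPM). In Rit1-M90I the Ly6c2 levels were 25.2 CPM and 80.3 CPM in these populations, so the control stood lowest in the first and between the others in the second.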

How the results depend on the processing

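No paired analysis was possible because each genotype had 1 library. Of 189 alternative values of the main results, 156 stayed within tolerance (95% interval for ratios, 0.1 for log2 medians, 1.5 times for counts), and for named genes 784 of 1088 stayed within 0.1, with 4 changes of sign. With a pseudocount of 1 CPM, 28 genes were higher and 41 lower over all barcodes and 22 lower against the matched control, and with no filter on low genes 39 and 16 were lower. Counts of genes lower in every population were 90 under the stricter barcode filter, 76 with gates on thinned barcodes and 74 with Leiden clusters, which compared fewer populations. The median log2 ratio of AA465934 was 2.98 with thinned gates, 2.95 with Leiden clusters and 4.62 with the small pseudocount, and that of Gm47283 was 1.08 with a higher gate score. For Plin2 it was -0.19 with the stricter filter, -0.40 with Leiden clusters and -0.81 with the small pseudocount, and for Jun -0.62 with thinned gates. Rsad2 in erythroblasts was at -0.32 with every barcode kept, Igf2 in innate lymphoid precursors at 0.16 with thinned gates, and under Leiden clusters Ccl5 was at 0.26 in plasmacytoid dendritic cells and 0.31 in lymphoid progenitors, the NK share ratio at 1.017 and the innate lymphoid ratio at 2.85. The basophil share ratio was 0.918 under the stricter filter. In the stem gate the identity list was at -0.48 with every barcode and the S phase list at 0.67 with the small pseudocount. The NK mitosis list was at 1.01 with every barcode, 0.988 with a higher gate score, 0.912 with Leiden clusters and 1.47 with the small pseudocount. Thinned S phase shares were 51.5% and 62.6% and mitosis shares 31.2% and 39.9%, and without thinning, at 5 or more per 1000 UMIs, S phase shares were 28.4% and 38.5% and mitosis shares 16.7% and 22.5%. The cause of these changes was not tested.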

Other observations

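Cytokine receptor genes and lineage factor genes were near level over all barcodes. Of 21 measured cytokine receptor genes none was at least 1.5-fold higher and 1 was lower, Il2rb, a gene of T and NK cells, with a median log2 ratio of -0.09. Of 16 measured myeloid factor genes none was called (median -0.11). The oncogene Myc was at 125 CPM in the control and 129 CPM in the knockout, and Cdk6, the partner of cyclin D1, at 435 and 430.1 CPM. Heme synthesis genes were not called, though 12 of 13 measured lay above 0 (median 0.14). Of the 3 measured IFITM family genes only Ifitm1 was called, with Ifitm2 at 429 and 407 CPM and Ifitm3 at 218 and 199.97 CPM.

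In erythroblasts, where 1.28% of all genes tested were higher, 2 of 17 measured interferon-stimulated genes were higher and none lower (median 0.22). They were Rsad2, whose log2 ratio was -0.32 when every deposited barcode was kept, and Irf9, at 28.0 CPM in the control and 60.3 CPM in the knockout. Ctse, the cathepsin E gene of erythroid cells, was at 54.9 CPM in the control and 87.6 CPM in the knockout over all barcodes. Cxcl12, the chemokine of the stem cell niche, was at 7.77 and 31.3 CPM, and the stromal gate, which it leads with Col1a1, held 20 and 22 barcodes. In the plasma cell gate Iglc1 was at 906 CPM in the control and 15220 CPM in the knockout, on 137 and 42 barcodes.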
